A study of Mus musculus with 16 samples.

Results

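Mouse sperm carry a family of small RNAs that begin like the microRNA let-7, and they were the most abundant small RNAs of both whole sperm libraries when sequences were grouped by their first 15 bases. The family was built from the 22 nt sequence with the most reads in sperm RNA of males on the normal diet. Every sequence of any length, in any of the 4 sperm small RNA libraries, that shares its first 15 bases is a member. There were 2337 members. Whole sperm RNA held 1731 members among 1044450 distinct sequences on the normal diet and 1623 among 1292194 on the high-fat diet, and each library of gel-cut RNA held 7. The reads of the normal-diet whole library chose the members, so the levels given here describe the libraries and no test was made of them. The starting sequence had 346140 reads. The next 22 nt sequence, let-7f-5p, had 327765 reads, differs inside the first 15 bases (G12A, positions counted from 1 at the 5′ end) and is therefore outside the family.

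The study compared RNA of mature sperm from C57BL/6J male mice bought at 5 weeks old and assigned to a high-fat diet (HFD, D12492) or a normal diet (ND, Diet 1415). Sperm were collected from the cauda epididymis, the storage segment of the duct that follows the testis, and were filtered and treated with a lysis buffer that removes somatic cells before TRIzol extraction. The 4 groups were whole sperm RNA of ND males, whole sperm RNA of HFD males, and the RNA of each diet that ran at 30 to 40 nt on a 15% denaturing gel and was cut out. Each group had 1 library, made with a TruSeq small RNA kit, so there is no replicate, no spread between animals can be given, and the diet cannot be told apart from the library. The labels used here do not say how many males gave sperm to each library. Intervals in parentheses are exact 95% intervals for counting error only, and reads copied by PCR are not independent molecules.

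MicroRNAs of the let-7 group are among the most conserved animal microRNAs. They are cut from a hairpin precursor by Drosha and Dicer, are loaded into an Argonaute protein, and lower the output of messenger RNAs that pair with their seed, bases 2 to 8. The precursor of some let-7 members is bound by Lin28, which recruits enzymes that add uridines to its 3′ end. Mature microRNAs occur as 3′ variants called isomiRs, which are shortened, run on into the next bases of the hairpin, or carry added bases, most often A or U, that the gene does not encode. In sequencing data U is read as T.

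RefSeq held 3 mature mouse microRNAs that begin with the 15 bases of the family, let-7a-5p, let-7b-5p and let-7c-5p, and the starting sequence was identical to let-7c-5p. They are printed here because nearly all members could be read as one of them, with the seed in capitals.
let-7a-5p: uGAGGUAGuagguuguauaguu
let-7b-5p: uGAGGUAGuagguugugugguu
let-7c-5p: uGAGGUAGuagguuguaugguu
The 3 share one seed and differ only at positions 17 and 19. From let-7a to let-7b the changes are A17G and A19G, and from let-7a to let-7c the change is A19G alone. The abundant relative let-7f-5p has the same seed.
let-7f-5p: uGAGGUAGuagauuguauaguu

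The 3 microRNAs come from 5 hairpin loci in RefSeq (GRCm38.p6), and the hairpin sequences decide which longer members the gene can encode. Mirlet7a-1 lies at chr13:48538179-48538272 on the minus strand, 262 bp from Mirlet7f-1. Mirlet7a-2 lies at chr9:41536716-41536811 on the plus strand inside the long noncoding RNA gene Mir100hg. Mirlet7c-2, at chr15:85706603-85706697, and Mirlet7b, at chr15:85707319-85707403, lie on the plus strand 622 bp apart inside the long noncoding RNA gene Lncppara. Mirlet7c-1 lies at chr16:77599657-77599750 on the plus strand, 657 bp from Mir99a. Whether each locus is exonic or intronic in its host gene was not analysed here. The first 30 bases of each precursor from the mature start follow, with the bases beyond the mature end in capitals.
Mirlet7a-1: ugagguaguagguuguauaguuUUAGGGUC
Mirlet7a-2: ugagguaguagguuguauaguuUAGAGUUA
Mirlet7b: ugagguaguagguugugugguuUCAGGGCA
Mirlet7c-1: ugagguaguagguuguaugguuUAGAGUUA
Mirlet7c-2: ugagguaguagguuguaugguuUUGGGCUC
Position 23 is U in all 5 hairpins, so a member with 1 extra T there cannot be told from an added T. Position 24 is C in Mirlet7b, and U or A in the others. A T or an A at position 24 can therefore come from a let-7a or let-7c hairpin and cannot come from that of let-7b.

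The 12 most abundant members of whole sperm RNA held 85.9% of the family's reads on ND and 86.5% on HFD. They are printed as read, with bases that match none of the hairpins in capitals, because they show the kinds of 3′ end that make up the family.
let-7c 22 nt: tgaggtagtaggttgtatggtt
let-7a 22 nt: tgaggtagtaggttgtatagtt
let-7c 23 nt: tgaggtagtaggttgtatggttt
let-7b 23 nt: tgaggtagtaggttgtgtggttt
let-7b 22 nt: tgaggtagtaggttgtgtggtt
let-7c 21 nt: tgaggtagtaggttgtatggt
let-7c 23 nt with added A: tgaggtagtaggttgtatggttA
let-7a 23 nt: tgaggtagtaggttgtatagttt
let-7b 24 nt with added T: tgaggtagtaggttgtgtggtttT
let-7b 23 nt with added A: tgaggtagtaggttgtgtggttA
let-7a 21 nt: tgaggtagtaggttgtatagt
let-7c 24 nt: tgaggtagtaggttgtatggtttt
The exact let-7c sequence alone gave 32.7% of the family's reads on ND and 35.2% on HFD. The 3 exact mature sequences together gave 50.9% and 51.6%. Most members were rare, and 45.9% of those on ND and 46.8% of those on HFD were read once. The 2 whole libraries shared 1020 members, which were 58.9% of the ND members and 62.9% of the HFD members and held 99.9% of the family's reads in each. Of all distinct sequences, 33.0% on ND and 26.7% on HFD were shared, and they held 91.5% and 88.3% of all reads.

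In whole sperm RNA the family had 111336 RPM (reads of the family scaled to all reads of the library, as reads per 1e6) on ND and 94957 RPM on HFD. These were 11.1% and 9.50% of all reads, and 42.7% and 35.3% of the reads of 21 to 23 nt. The HFD level was 0.853 times the ND level (0.851 to 0.855). Among 5295 sequences with at least 10 RPM in both libraries the median log2 ratio of HFD to ND was 0.25, and relative to that median the family stood at -0.48 on the log2 scale, against -0.23 by RPM. No spread between males is known, so whether the difference exceeds it cannot be said.

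All 3 microRNAs were lower in the HFD library than in the ND library, each by a different factor. let-7c had 63992 RPM on ND and 58206 RPM on HFD, a ratio of 0.910 (0.906 to 0.913). let-7b had 25496 and 20300 RPM, a ratio of 0.796 (0.792 to 0.801). let-7a had 21642 and 16321 RPM, a ratio of 0.754 (0.749 to 0.759). The intervals of the 3 ratios do not overlap, and each direction was the same when the reads of 21 to 23 nt or the median ratio set the scale. With the unequal ratios, let-7c made 57.5% of the family on ND and 61.3% on HFD, let-7b 22.9% and 21.4%, and let-7a 19.4% and 17.2%. Members whose bases at positions 17 and 19 fit none of the 3 gave 0.115% of the family's reads on HFD and 0.116% on ND, and reads that end before position 19 gave 0.0690% on ND and 0.0209% on HFD.

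Of the members, 39 reached 100 RPM in either whole library, 1.67% of all members with 97.2% of the family's reads on ND and 97.4% on HFD. By RPM, 34 of these 39 were lower and 5 were higher in the HFD library, 39 were lower after median ratio scaling, and 36 were lower when scaled to reads of 21 to 23 nt. By RPM, the median log2 ratio of the 39 was -0.29, against -0.21 over all 956 sequences at that level, of which 57.3% were lower. Median ratio scaling lowers every sequence by 0.25 on the log2 scale, and the highest of the 39 members stood at 0.23 by RPM. The count of 39 therefore follows from that shift. The share of all sequences that were lower is not given for the other scalings, so those counts show nothing particular to the family. None of the 39 members differed by 2 times or more by RPM, while 36.5% of the 956 sequences did, 8.79% higher and 27.7% lower in the HFD library. After median ratio scaling 1 member was lower by 2 times or more, while 375 of the sequences at that level differed by as much, 56 higher and 319 lower. The lowest and highest ratios belonged to members with unlike ends, a shortened let-7a and a let-7c with an added G.
let-7a 20 nt: tgaggtagtaggttgtatag
let-7c 23 nt with added G: tgaggtagtaggttgtatggttG
The 20 nt let-7a had 597 RPM on ND and 349 RPM on HFD, a ratio of 0.584 (0.559 to 0.610). The let-7c with an added G had 131 and 154 RPM, a ratio of 1.18 (1.09 to 1.27).

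Relatives with the same seed outside the family had ratios on both sides of 1 in the same libraries. let-7f had 46261 RPM on ND and 43858 RPM on HFD, a ratio of 0.948 (0.944 to 0.952). let-7e, with let-7k, which has the same first 15 bases, had a ratio of 0.956 (0.927 to 0.986). let-7g and let-7i, which cannot be told apart by those bases, had 3280 and 3988 RPM, a ratio of 1.22 (1.20 to 1.23). let-7d had a ratio of 1.08 (1.05 to 1.10) and miR-98 one of 1.11 (0.969 to 1.26), and both turn to lower in HFD when scaled by the median ratio, with log2 values of -0.15 and -0.11. miR-1961, with 3 reads on ND and 8 on HFD, had a ratio of 2.66 (0.639 to 15.6). Relatives with the seed, these included, came to 52334 RPM on ND and 50749 RPM on HFD in all, a ratio of 0.970. Among 44 other microRNA starts with at least 100 RPM in both whole libraries, the ratio ran from 0.854 to 2.56 with a median of 1.23, and 36 were higher in HFD, so the family's 0.853 lay just below the lowest of them. The lowest of the 44, miR-423-5p, had 274 RPM on ND, so its ratio has a wider counting error and its order against the family is not settled. The family was chosen by reads of the ND library, which are also the base of its ratio. With 1 library per diet this is a rank within these libraries and not a test.

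Lists of microRNAs known from other cells give the context for that ratio. All 6 matched epididymis microRNAs of 8 listed (miR-143 and miR-145a were not matched) were higher in the HFD library, at 7950 RPM on ND and 12723 RPM on HFD in sum. These are counts of names and not of separate starts. miR-141-3p and miR-200a-3p share one start, with 147.4 RPM on ND and 162.8 RPM on HFD, and their reads cannot be told apart. Where a list names both, the same reads may be counted for each name. All 4 blood microRNAs were higher too, at 126 and 297 RPM. Of 8 male germ cell microRNAs 6 were higher, at 1791 and 1941 RPM. Of 2 matched muscle microRNAs 1 was higher, at 10.6 and 8.18 RPM, while miR-133a and the liver microRNA miR-122 were not matched. let-7 microRNAs are made in many tissues, and the part of these cells in the family's level was not tested. Fewer cells of a type and less RNA per cell cannot be told apart in such libraries.

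Most family reads were 22 or 23 nt long in both whole libraries. Reads of 22 nt made 52.2% on ND and 53.1% on HFD, and reads of 23 nt made 29.0% and 29.5%. Reads of 24 nt made 7.13% and 7.00%, reads of 21 nt 6.91% and 6.40%, and reads of more than 24 nt 2.91% and 2.69%. The mean length was 22.42 nt on ND and 22.44 nt on HFD.

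The 3 microRNAs had different length profiles, and each kept its own profile on both diets. let-7a was the shortest, with 64.5% of its reads at 22 nt on ND and 64.7% on HFD, and 24.0% and 25.7% over 22 nt. let-7c was between the others, with 58.3% and 59.1% at 22 nt, and 32.9% and 33.0% over it. let-7b was the longest: 26.7% and 26.6% of its reads were 22 nt, 39.8% and 40.2% were 23 nt, 17.9% and 18.4% were 24 nt, and 67.4% and 68.0% were longer than the mature sequence. For let-7b the 23 nt member, with 7305 RPM on ND and 5707 RPM on HFD, had more reads than the exact mature sequence, with 6521 and 5145 RPM. For let-7a and let-7c the exact sequence led, with 13823 and 10456 RPM and with 36368 and 33388 RPM.

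Short members had a lower ratio of HFD to ND than the family as a whole. The ratio of HFD to ND was 0.258 for reads of 18 nt (0.219 to 0.303), 0.542 for 19 nt, 0.642 for 20 nt and 0.789 for 21 nt, and it was 0.867 for 22 nt and 0.868 for 23 nt. Reads of 18 to 20 nt as a group had a ratio of 0.619 in the family (0.605 to 0.634). All reads of 18 to 20 nt in the libraries had a ratio of 0.613, and such reads were 3.58% of all ND reads and 2.20% of all HFD reads. At the shortest lengths all reads were low too, with a ratio of 0.304 at 18 nt and 0.499 at 19 nt. The first lay above the family's 0.258 and the second below its 0.542. At 20 and 21 nt all reads had ratios of 0.806 and 1.03, above those of the family. Among 42 other microRNA starts the ratio of reads at least 2 bases shorter than the mature sequence had a median of 0.970, and 4 lay below the family. The part of the library-wide difference of short reads in the lower level of short members was not tested.

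Read against the hairpins, 51.0% of family reads on ND and 51.7% on HFD ended at the mature 3′ end, a class that includes reads with 1 changed base up to position 19. Shortened ends made 8.33% and 7.37%, and ends that ran on into hairpin bases made 22.7% and 22.8%. Reads with a tail of bases that match no hairpin made 18.0% and 18.2%. Tails stood on the full mature end in 10.0% and 10.1% of family reads, on a shortened end in 3.22% and 3.60%, and after a hairpin extension in 4.71% and 4.50%. Most tails were 1 base (60.2% and 61.2% of tailed reads) or 2 bases long (32.4% and 31.9%).

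Among reads called tailed, tails of A alone were the most frequent kind. They made 59.5% of tailed reads on ND and 59.2% on HFD, tails of T alone 17.5% and 17.3%, and tails with a C or G 3.68% and 4.20%. The hairpins affect these shares, since each has U at position 23. A T added there is not called a tail, while an added A is. Tails of A alone made 86.6% and 85.6% of tailed let-7a reads, 77.8% and 76.9% for let-7c, and 40.8% and 39.2% for let-7b. Of the bases in let-7b tails, A made 53.15% and 51.48% and T 45.25% and 46.69%. By microRNA, a tail was carried by 8.18% and 8.81% of let-7a reads, 40.2% and 41.3% of let-7b reads, and 12.4% and 12.7% of let-7c reads. Part of that difference is fixed by the hairpins, since a T or an A at position 24 after a T at position 23 counts as a tail only for let-7b. The share of reads longer than 22 nt needs no hairpin, and there too let-7b was highest, as given with the length profiles.

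The base that followed the mature end was similar for the 3 microRNAs, also where their hairpins differ. Only reads that begin with the exact mature sequence were counted, and at positions 24 and 25 whatever bases stood between. Among those that reach position 23, A stood there in 27.4% of let-7a reads on both diets, in 25.4% and 25.3% of let-7b reads on ND and HFD, and in 26.2% and 25.9% of let-7c reads. Nearly all other reads had T. At position 24 the let-7b hairpin has C, yet C was read in 0.193% of let-7b reads on ND and 0.203% on HFD. T was read there in 67.9% and 71.2% and A in 31.1% and 27.7%. let-7c, whose hairpins have A or U there, had T in 68.1% and 71.4% and A in 30.2% and 26.9%. let-7a had T in 65.1% and 68.7% and A in 33.2% and 29.2%. At position 25, where both let-7c hairpins have G, G was read in 1.93% and 1.92% of let-7c reads and T in 59.6% and 63.4%. The let-7b hairpin has A there, and A was read in 35.8% and 32.7% and T in 62.8% and 65.8%. In each of the 3 microRNAs A at position 24 was less frequent on HFD, by more than the counting intervals (30.7% to 31.4% against 27.3% to 28.1% for let-7b), while A at position 23 differed by less than 1 percentage point.

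The T ladder of let-7b shows the members that its gene does not encode. They are printed with all bases beyond position 22 in capitals, of which the first T also matches the hairpin.
let-7b + 1 T: tgaggtagtaggttgtgtggttT
let-7b + 2 T: tgaggtagtaggttgtgtggttTT
let-7b + 3 T: tgaggtagtaggttgtgtggttTTT
let-7b + 4 T: tgaggtagtaggttgtgtggttTTTT
let-7b + 5 T: tgaggtagtaggttgtgtggttTTTTT
On ND these had 69523, 19758, 6232, 1550 and 411 reads, and on HFD 54446, 16745, 5417, 1286 and 371 reads. From the second T to the fifth, each member had between 24.9% and 31.5% of the reads of the one before it on ND, and between 23.7% and 32.4% on HFD. The ladder went on to 8 added T, which had 5 reads in each whole library. The exact sequence had 62064 and 49081 reads, so the first T was read more often than the exact sequence. As a share of the reads of the member before, the A ladder of let-7b held more than the T ladder at the second added base and less at the third. In reads the A ladder held fewer at both.
let-7b + 1 A: tgaggtagtaggttgtgtggttA
let-7b + 2 A: tgaggtagtaggttgtgtggttAA
let-7b + 3 A: tgaggtagtaggttgtgtggttAAA
These had 17807, 6966 and 706 reads on ND and 14642, 4974 and 447 on HFD. The second A had 39.12% and 33.97% of the reads of the first, and the third A had 10.1% and 8.99% of those of the second.

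From the second T to the fifth, on both diets, the ladders of let-7c and let-7a held smaller shares of the member before than that of let-7b. let-7c with 1, 2, 3 and 4 T had 118393, 14035, 2233 and 324 reads on ND, and 108361, 12785, 2042 and 299 reads on HFD. On ND these were 34.2%, 11.9%, 15.9% and 14.5% of the member before. let-7a with 1, 2 and 3 T had 32187, 1755 and 195 reads on ND, 24.5%, 5.45% and 11.1% of the member before, and on HFD 25.9%, 5.95% and 11.2%. At the second T, where the Mirlet7c-2 and Mirlet7a-1 hairpins have U and that of let-7b has C, let-7b kept 28.4% on ND and 30.8% on HFD, more than let-7c or let-7a.

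Trimmed members could also carry an A. All 5 hairpins have U at position 22. Among reads that match the mature sequence before position 22 and reach it, A was read there in 5.06% of let-7b reads on ND and 5.88% on HFD, in 2.46% and 2.81% of let-7c reads, and in 0.740% and 0.774% of let-7a reads. The bases before the 3′ end were stable: at positions 16 to 19 a base other than those of the 3 microRNAs was read in 0.034% to 0.107% of reads in the 2 whole libraries.

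In whole sperm RNA, long members rarely followed a hairpin to their last base. Of reads of 25 nt or more in whole sperm RNA, 99 of 30835 on ND (0.321%) and 74 of 24326 on HFD (0.304%) followed a hairpin to their last base. At 30 nt or more the share was higher, 15 of 271 reads on ND (5.5%) and 12 of 241 on HFD (5.0%). In gel-cut RNA, 27 of 101 reads of 25 nt or more on ND and 26 of 26 on HFD followed a hairpin. Reads of 30 to 40 nt in whole RNA came to 269 on ND and 241 on HFD. The opposite arms of the 5 hairpins had 21 reads on ND and 19 on HFD, 2.21 and 1.99 RPM, and none in gel-cut RNA. Reads that start 1 base later than the family had 168 RPM on ND and 108 RPM on HFD.

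Against the 44 other microRNA starts of whole sperm RNA, the family was near the middle in how many reads carried a tail and in the upper part in how many tails were A alone. On ND a tail was carried by 18.0% of family reads against a median of 20.2% (1.13% to 95.0%) for the others, with 19 of the 44 below the family. Tails of A alone made 59.6% of tailed reads in that reading, against a median of 31.5%, with 36 of the 44 below the family. Relatives with the seed lay on both sides of the family. Above it were let-7f with 92.9%, the highest of the 44, and let-7d with 73.4%. Below it were let-7g with let-7i at 53.2%, and let-7e at 28.7%. Reads longer than the mature sequence made 39.0% of the family against a median of 29.1%. let-7f, with 6.14% tailed and 12.7% longer than the mature sequence on ND, lay below let-7a on both measures. The ranks for tails depend on the hairpins. Those of the family have U at position 23, so a T added there is not called a tail. The hairpin bases of the other starts are not given here, so these ranks cannot be read as traits of the family. The family's share of tails of A alone is also a mixture, with 86.6% for let-7a, 77.8% for let-7c and 40.8% for let-7b on ND. No test compares the family with the others, since the same library gave all of these values.

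Gel-cut RNA held almost none of the family. It had 147 reads on ND and 131 on HFD, 14.2 and 12.4 RPM, which were 7853 and 7687 times lower than in whole RNA of the same diet. Ranked by first 15 bases, the family fell from rank 1 in both whole libraries to rank 3753 on ND and 4375 on HFD. Between the diets the ratio in gel-cut RNA was 0.871 (0.683 to 1.11), an interval that includes 1, and the sign changes with the scaling: by the median ratio of 2506 sequences, which was itself -0.52 on the log2 scale, the family stood at 0.33. The gel-cut libraries had 71.0 and 64.3 reads per distinct sequence, against 9.11 and 7.38 in whole RNA, and the median sequence had 12 and 10 reads against 1 and 1. How many molecules stand behind the reads of a member is not known. No member reached 100 RPM in gel-cut RNA, where 74.1% of the 930 sequences at that level differed by 2 times or more between the diets, 47.3% higher and 26.8% lower in the HFD library.

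The gel-cut libraries held 11 members between them, of which 8 were also in whole RNA. Both diets shared 3, which were 42.9% of the members of each, while 18.6% of all distinct sequences on ND and 16.5% on HFD were shared between the gel-cut libraries. Those with at least 10 reads in a gel-cut library that were not among the 12 most abundant of whole RNA are printed with bases that match no hairpin in capitals.
let-7c 30 nt with tail: tgaggtagtaggttgtatggttAAGTAATT
let-7a 30 nt: tgaggtagtaggttgtatagttttagggtc
let-7c 24 nt with tail: tgaggtagtaggttgtatggttGC
let-7c 19 nt: tgaggtagtaggttgtatg
The 30 nt let-7c with a tail had 72 reads on ND and 0 on HFD, and 0 in both whole libraries. Those 72 reads were 49.0% of the family's reads in that library, and another 2 members with 1 read each on ND had nearly the same tail. The 30 nt let-7a followed the Mirlet7a-1 hairpin to its last base, with 27 reads on ND and 26 on HFD, 2.60 and 2.45 RPM, against 3 reads in each whole library. It was the only member of 25 nt or more in the HFD gel-cut library. The exact let-7a had 0 reads on ND and 54 on HFD, and the exact let-7c had 34 and 13. let-7c with the tail GC had 0 and 15 reads, and the 19 nt let-7c had 11 and 0. The 21 nt members of let-7c and let-7a had 0 reads on ND and 12 and 10 on HFD.

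By microRNA the gel-cut libraries differed in a different direction from the whole ones for let-7a. let-7a had 27 reads on ND and 90 on HFD, a ratio of 3.26 (2.10 to 5.21), while its ratio in whole RNA was 0.754. let-7c had 120 and 41 reads, a ratio of 0.334 (0.228 to 0.480). let-7b had 0 reads in both gel-cut libraries, where 3 reads would be 0.289 RPM on ND and 0.283 RPM on HFD. If each read is an independent molecule, let-7b was by that limit at least 88118-fold lower in gel-cut than in whole RNA on ND, and 71763-fold on HFD. The gel-cut libraries had 71.0 and 64.3 reads per distinct sequence, so reads may not be independent and the true bounds may be smaller. Members inside the 30 to 40 nt range of the gel, summed, were also not higher after the cut, at 0.345 times (0.271 to 0.435) the whole level on ND and 0.0970 times (0.0621 to 0.146) on HFD, where all reads of 30 to 40 nt were 1.45 and 1.35 times their whole level. In the gel-cut libraries 76.0% and 63.8% of all reads were 30 to 40 nt long, and in whole RNA 52.6% and 47.2%.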

How the data were processed

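Sperm small RNA was analysed from 4 of the 16 samples of the series, and the embryo, islet and bisulfite samples were not analysed here. The authors deposited counts of reads per distinct sequence for each library. Their lengths ran from 18 to 44 nt. Adapter removal, quality filtering and any alignment are not given in the sources used here. Total counts were 9517720 (ND) and 9539556 (HFD) in whole RNA, and 10368455 and 10605324 in gel-cut RNA.

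Counts were scaled to RPM, reads per 1e6 reads of the library. Ratios have exact conditional binomial intervals and shares have Clopper-Pearson intervals, all at 95%. A count of 0 was read as allowing up to 3 reads. Each member was compared with the 5 RefSeq hairpins (GRCm38.p6) from the mature start, with 1 changed base allowed up to position 19, and ends before position 18 were not read. The microRNA was told by positions 17 and 19. All 3 matures with the family's first 15 bases were found in RefSeq. Calling of ends was tried on simulated reads without changed bases, whose first added base always differed from the next hairpin base. The trial therefore does not cover added bases that match a hairpin. Python 3.11.15, pandas 2.3.3, numpy 2.4.6 and scipy 1.17.1 were used.

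Named members are the starting sequence, the 12 most abundant in whole RNA, the most abundant of each length, the 5 most abundant in gel-cut RNA and the RefSeq matures. The ladders, the 20 nt let-7a, the let-7c with an added G, and the less abundant gel-cut members were named after their values were seen. Members, lists and tests were chosen with earlier results of these data known. Alternatives were scaling to reads of 21 to 23 nt, median ratio scaling, 12 shared bases, 1 mismatch and a minimum of 10 reads.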

Additional observations from a re-analysis of the deposited data

Results flagged for a closer look

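let-7a differed between the diets in opposite directions in the 2 kinds of RNA. Its log2 ratio of HFD to ND was 1.70 in gel-cut RNA, from 27 and 90 reads, and -0.41 in whole sperm RNA. In gel-cut RNA the 30 nt let-7a had 27 and 26 reads. The other HFD reads came from the exact let-7a (0 and 54) and the 21 nt let-7a (0 and 10), and how many molecules they stand for is not known. The relative let-7f, outside the family, had ratios on the same 2 sides of 1, 0.948 in whole and 1.69 (1.18 to 2.43) in gel-cut RNA, and the relatives with the seed together had 0.970 and 3.78. The difference between the 2 let-7a ratios was not tested, since each group has 1 library.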

How the results depend on the processing

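Sharing 12 bases instead of 15 left the 4 comparisons of family level within their counting intervals, and so did a minimum of 10 reads. The log2 ratio of HFD to ND in whole RNA (-0.23) stayed negative, at -0.29 scaled to reads of 21 to 23 nt, -0.48 by median ratio and -0.17 with 1 mismatch, which admits let-7d, let-7e, let-7f, let-7g, let-7i, let-7k and miR-98. In gel-cut RNA (-0.20) it was -0.80 scaled to 21 to 23 nt, and it reversed to 0.33 by median ratio and 0.71 with 1 mismatch, which adds 51 let-7f reads on ND and 88 on HFD, and 1 and 112 of let-7g and let-7i. Gel-cut over whole was -10.39 on ND and -10.90 on HFD scaled to 21 to 23 nt, -12.67 and -12.61 by median ratio, and -12.19 on HFD with 1 mismatch. The 22 nt share in whole RNA was 52.35% on ND and 53.21% on HFD with at least 10 reads. With 1 mismatch it was 59.26% and 60.66% in whole and 41.71% and 61.38% in gel-cut RNA. The share over 22 nt was 38.91% and 39.07% in whole RNA with at least 10 reads, and with 1 mismatch 31.03% and 30.72% in whole and 51.26% and 19.46% in gel-cut RNA. Of sequences with at least 10 RPM in both whole libraries, 782 of 5295 (14.8%) differed by 2 times or more, against 349 of 956 (36.5%) with at least 100 RPM in either. The 1-mismatch values include added sequences by construction, and the cause of the other shifts was not tested. No paired analysis was possible because each sperm group has 1 library, so the groups share fewer than 2 replicate numbers. The 147 and 131 gel-cut reads limit what can be said of single members there.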
